A study of Mus musculus with 2 samples.

Results

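The heavy chain variable genes are the 113 genes with the biotype IG_V_gene and a symbol starting with Ighv, of 43346 genes in both gene tables. Each symbol opens with a family number, which sorts the 113 genes into 16 families. Usage is the share of the summed heavy V expected counts of a library that fell on a gene or family. PolyA RNA came from intestinal tissue of C57BL/6J mice, an inbred strain, 8 weeks old, labelled large intestine and pooled from males and females. There is a single group, with no treatment named and 2 biological replicates, recorded as separate biosamples under the same donor record. Expected counts summed to 50189619 (replicate 1) and 58233142 (replicate 2). With 1 library set against 1, differences between replicates have no replicate check and no p-value. Spreads are given as the SD over both libraries, and this spread may in part be technical.

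The levels of a few genes went against the labels in both libraries. The 4 Y-linked genes examined had 2741 counts in replicate 1 and 3 in replicate 2, while Xist had 17 and 12563, so neither library looked like a pool of both sexes. The colon epithelium genes Car1 and Aqp8 lay at 0.23 and 0.04 TPM in replicate 1, against 0.27 and 0.04 TPM in replicate 2. The ileal bile acid binding protein gene Fabp6 reached 477 TPM (replicate 1) and 5279 TPM (replicate 2), and the Paneth cell defensin gene Defa24 5012 and 9564 TPM. The Y-linked genes, Xist and Fabp6 differed between the libraries along with heavy V usage, and the part of sex and gut region in it cannot be told apart.

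An antibody heavy chain gene is assembled in each developing B cell by joining a V, a D and a J segment, after which the promoter of the chosen V segment drives a transcript that runs through to the constant region. Daughters of that cell keep the same joined V segment, so an expanded clone raises the reads of its V gene. The gut wall is home to plasma cells that secrete IgA and transcribe their joined heavy chain gene at very high levels. In bulk tissue, more cells with a V gene and more RNA per cell cannot be told apart.

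The V exons of 6 genes carry the main contrasts and are printed from the GENCODE M21 transcripts (GRCm38, chromosome 12, minus strand, 5′ to 3′). Ighv1-34 (chr12:114851190-114851483) was the most used gene on average, and its neighbour Ighv1-31 (chr12:114829264-114829557) was the second most used in replicate 2 and nearly without counts in replicate 1. The first 11 bases, which belong to the leader, are left out. Capitals in this pair mark the 18 bases that differ.
Ighv1-34: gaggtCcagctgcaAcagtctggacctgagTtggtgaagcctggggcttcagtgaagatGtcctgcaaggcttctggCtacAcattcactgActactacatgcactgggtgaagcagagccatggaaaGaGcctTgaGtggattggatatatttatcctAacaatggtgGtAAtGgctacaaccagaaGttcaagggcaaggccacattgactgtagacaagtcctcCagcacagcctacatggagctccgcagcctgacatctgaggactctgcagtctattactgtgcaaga
Ighv1-31: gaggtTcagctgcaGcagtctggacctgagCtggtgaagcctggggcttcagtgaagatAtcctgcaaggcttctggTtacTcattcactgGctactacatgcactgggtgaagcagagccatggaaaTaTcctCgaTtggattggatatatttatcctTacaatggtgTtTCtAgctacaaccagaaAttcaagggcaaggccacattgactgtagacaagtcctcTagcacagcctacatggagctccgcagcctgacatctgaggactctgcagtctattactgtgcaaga

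Ighv5-17 (chr12:113859149-113859442), Ighv1-55 (chr12:115208095-115208388) and Ighv1-15 (chr12:114657353-114657646) were among the 4 most used genes of replicate 1, and Ighv3-3 (chr12:114196439-114196734) was among the 10 most used of replicate 2. Capitals mark 9 bases from the codon of the conserved cysteine near the 3′ end, where the D segment is joined.
Ighv5-17: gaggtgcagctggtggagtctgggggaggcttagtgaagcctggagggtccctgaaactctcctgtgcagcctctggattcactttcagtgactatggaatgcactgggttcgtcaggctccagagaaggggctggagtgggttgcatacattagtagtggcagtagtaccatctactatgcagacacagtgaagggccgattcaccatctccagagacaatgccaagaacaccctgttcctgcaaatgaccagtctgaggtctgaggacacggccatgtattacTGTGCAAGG
Ighv1-55: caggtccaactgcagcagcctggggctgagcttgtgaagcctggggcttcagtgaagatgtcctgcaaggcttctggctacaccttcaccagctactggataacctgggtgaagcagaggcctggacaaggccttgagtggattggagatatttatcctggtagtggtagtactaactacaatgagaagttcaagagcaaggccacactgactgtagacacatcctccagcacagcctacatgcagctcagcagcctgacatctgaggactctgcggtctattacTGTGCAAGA
Ighv1-15: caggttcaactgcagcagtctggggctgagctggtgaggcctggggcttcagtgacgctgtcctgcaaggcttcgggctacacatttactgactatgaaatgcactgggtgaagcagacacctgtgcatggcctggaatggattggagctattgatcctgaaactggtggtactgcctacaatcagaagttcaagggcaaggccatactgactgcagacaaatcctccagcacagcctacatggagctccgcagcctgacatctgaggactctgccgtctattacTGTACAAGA
Ighv3-3: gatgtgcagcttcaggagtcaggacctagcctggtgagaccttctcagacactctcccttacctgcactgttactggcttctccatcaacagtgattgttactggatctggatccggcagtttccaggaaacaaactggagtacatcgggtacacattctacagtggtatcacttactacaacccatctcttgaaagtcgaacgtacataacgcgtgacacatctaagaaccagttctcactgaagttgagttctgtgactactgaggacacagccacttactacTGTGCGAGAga

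The 9 letters TGTGCAAGA, seen at that place in Ighv1-55, occurred on the transcript strand in the last 30 bases of 63 of the 113 genes (55.8%) and of 15 of the 60 heavy V pseudogenes in the tables. Genes with these letters held 63.7% of heavy V counts in replicate 1 and 75.4% in replicate 2. Ighv5-17, Ighv1-15 and Ighv3-3 have other letters there, as the lines above show.

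Heavy V transcripts took 0.108% of all expected counts in replicate 1 (54313 counts) and 0.0508% in replicate 2 (29576 counts), a mean of 0.0795% ± 0.0406 (SD, n = 2). In TPM, which corrects for transcript length, the genes summed to 7852 in replicate 1 and 3431 in replicate 2. Replicate 1 was thus 2.13 times replicate 2 by share of library counts and 2.29 times by TPM. The 5 most used genes of replicate 1, Ighv5-17, Ighv1-55, Ighv1-34, Ighv1-15 and Ighv1-22, summed to 3304 TPM (replicate 1) and 574 TPM (replicate 2). The other 108 genes came to 4549 TPM (replicate 1) and 2856 TPM (replicate 2), a ratio of 1.59. Since those 5 were chosen for being high in replicate 1, the ratio without the 5 most used of either library, 9 genes in all, is also given: 1.89, from 4034 TPM (replicate 1) and 2133 TPM (replicate 2).

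Most of the repertoire was transcribed in both libraries. Counts were present for 90 genes in replicate 1 and 93 in replicate 2, and for 87 in both. At least 1 TPM was reached in both libraries by 75 genes, in 1 library by 12, and in neither by 26. There were 17 genes with 0 counts in both: Ighv1-16, Ighv1-24, Ighv1-37, Ighv1-56, Ighv1-62-1, Ighv1-71, Ighv2-7, Ighv5-12-4, Ighv6-4, Ighv6-5, Ighv6-7, Ighv7-2, Ighv8-9, Ighv8-13, Ighv11-1, Ighv15-2 and Ighv16-1. A count of 0 allows a share of up to 0.0055% of heavy V counts in replicate 1 and 0.0101% in replicate 2, by a floor of 3 counts that covers counting error only. This limit does not hold for Ighv1-71, whose V exon is the same as that of Ighv1-62-2. Families 15 and 16, with 1 gene each, were the only families without a count in either library. Family 13, with Ighv13-2 alone, had 0 counts in replicate 1 and 2 in replicate 2.

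Usage was concentrated in a minority of the genes, more so beyond the first gene in replicate 1. The most used gene held 11.6% of heavy V counts in replicate 1 and 11.9% in replicate 2. The 10 most used held 63.5% in replicate 1 and 53.7% in replicate 2 (mean 58.6% ± 6.92, SD, n = 2). To reach 50% of the counts took 6 genes in replicate 1 and 10 in replicate 2, and to reach 90% took 31 and 34. The inverse Simpson number, the number of equally used genes that would give the same concentration, was 18.0 in replicate 1 and 24.3 in replicate 2. Of the 10 most used genes, 4 were the same in both libraries: Ighv1-34, Ighv5-17, Ighv1-64 and Ighv1-59.

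**Figure D1:**
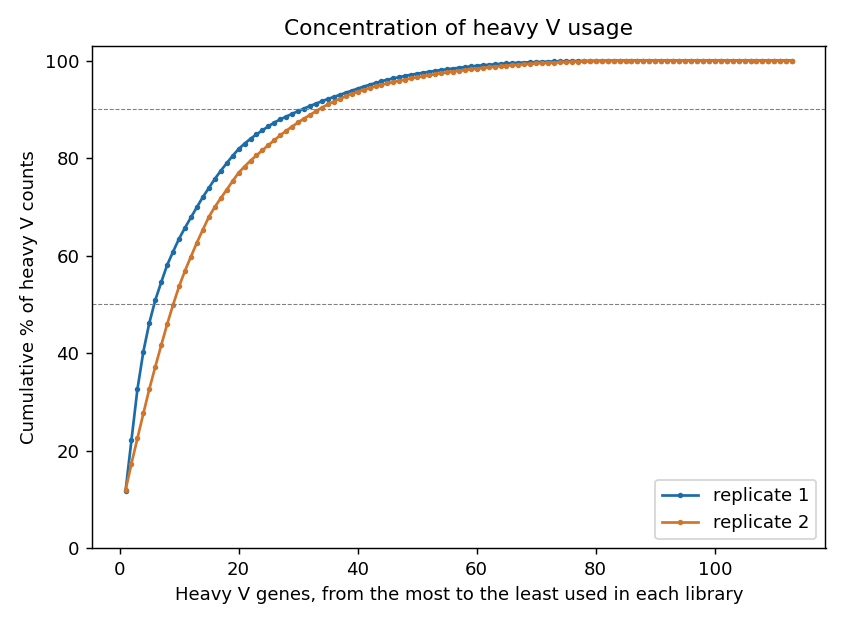
Cumulative percent of heavy V counts (y axis) against the number of genes taken from the most to the least used in each library (x axis). The dashed lines stand at 50% and 90%, which replicate 1 reached with 6 and 31 genes and replicate 2 with 10 and 34.

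Ighv1-34 (ENSMUSG00000093955.2, 114851190 to 114851660) stood near the top of both libraries. It had 5645 counts (725 TPM) in replicate 1, against 3520 counts (347 TPM) in replicate 2. Its usage was 10.4% in replicate 1 (exact binomial interval 10.1 to 10.7%) and 11.9% in replicate 2 (11.5 to 12.3%), the third and the first place. These intervals are at the 95% level and cover counting error only. Its log2 ratio of TPM + 1 was 1.06 towards replicate 1, whereas its usage was lower there by 0.20 on the log2 scale. Ighv1-64 (ENSMUSG00000094088.1, 115507545 to 115508031) was similar in usage, with 4.68% usage in replicate 1 and 4.32% in replicate 2, from 2542 and 1279 counts. Ighv3-6, the top family 3 gene on average, had 2.77% in replicate 1 and 2.86% in replicate 2, and its intervals overlapped (2.63 to 2.91% and 2.67 to 3.06%). Ighv9-3 had 1.56% in replicate 1 and 1.76% in replicate 2, with 848 and 520 counts.

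Several genes were far more used in replicate 1. Ighv5-17 (ENSMUSG00000095571.2, 113859149 to 113859670) led replicate 1 with 6320 counts (740 TPM, 11.6% usage), against 1102 counts (99.1 TPM, 3.73%) in replicate 2. Ighv1-55 (ENSMUSG00000095589.2, 115208095 to 115208591) had 5726 counts (637 TPM, 10.5%) in replicate 1 and 520 counts (44.5 TPM, 1.76%) in replicate 2. Ighv1-15 (ENSMUSG00000103254.1, 114657353 to 114657786) had 4214 counts (685 TPM, 7.76%) in replicate 1 and 135 counts (16.9 TPM, 0.456%) in replicate 2. Its place among the genes was the fourth in replicate 1 and rank 40 in replicate 2, and its usage was 17.0 times higher in replicate 1 (exact interval of the ratio 14.3 to 20.3).

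The family 2 genes Ighv2-9 and Ighv2-3 showed the largest usage ratios towards replicate 1 among genes with a mean usage of at least 0.5%. Ighv2-9 had 1918 counts (289 TPM) in replicate 1, against 39 (4.52 TPM) in replicate 2, a 26.8-fold higher usage (19.5 to 37.8). Ighv2-3 had 1994 counts (334 TPM) in replicate 1, against 52 (6.69 TPM) in replicate 2, a 20.9-fold higher usage (15.9 to 28.1). Ighv7-3 followed a milder course, with 1002 counts in replicate 1 and 89 in replicate 2, a 6.13-fold higher usage (4.93 to 7.70). Ighv1-22 had 3182 counts (517 TPM) in replicate 1, against 532 (66.5 TPM) in replicate 2. Ighv6-6, the leading family 6 gene, had 298 counts (46.4 TPM) in replicate 1, against 10 (1.20 TPM) in replicate 2.

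Other genes were prominent in replicate 2 and nearly absent from replicate 1. Ighv1-31 (ENSMUSG00000096649.2, 114829264 to 114829697) had 5 counts (1.38 TPM, 0.0092% usage) in replicate 1 and 1615 counts (212 TPM, 5.46%) in replicate 2. The ratio of its usage was 593-fold towards replicate 2, with an exact interval of 254 to 1829. Ighv3-3 (ENSMUSG00000094029.2, 114196439 to 114196875) had 2 counts (0.33 TPM) in replicate 1 and 1188 counts (149.6 TPM, 4.02% usage) in replicate 2. With 2 counts its usage ratio of 1091-fold towards replicate 2 had an exact interval of 301 to 9018. Ighv5-4, Ighv1-7 and Ighv1-18 came next in this direction among genes with a mean usage of at least 0.5%, with 266, 140 and 140 counts in replicate 1, against 598, 316 and 308 in replicate 2. Ighv1-84 had 0 counts in replicate 1 and 162 (20.3 TPM) in replicate 2, so it was at least 46.5-fold lower in replicate 1 by share of library counts, with the floor of 3 counts per library.

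Ighv1-31 and Ighv1-34 lie 21.5 kb apart, and their V exons are 93.8% identical. The pair printed above thus holds a gene that led replicate 2 and ranked high in replicate 1 beside one that had counts almost entirely in replicate 2. In 81.2% of the 76-base windows of the Ighv1-31 transcript and 81.5% of those of Ighv1-34, the sequence occurs in no other heavy V gene or pseudogene. The deposited posterior SD of the count, the authors' measure of uncertain read assignment, was 0 for Ighv1-34 in both libraries.

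**Figure D2:**
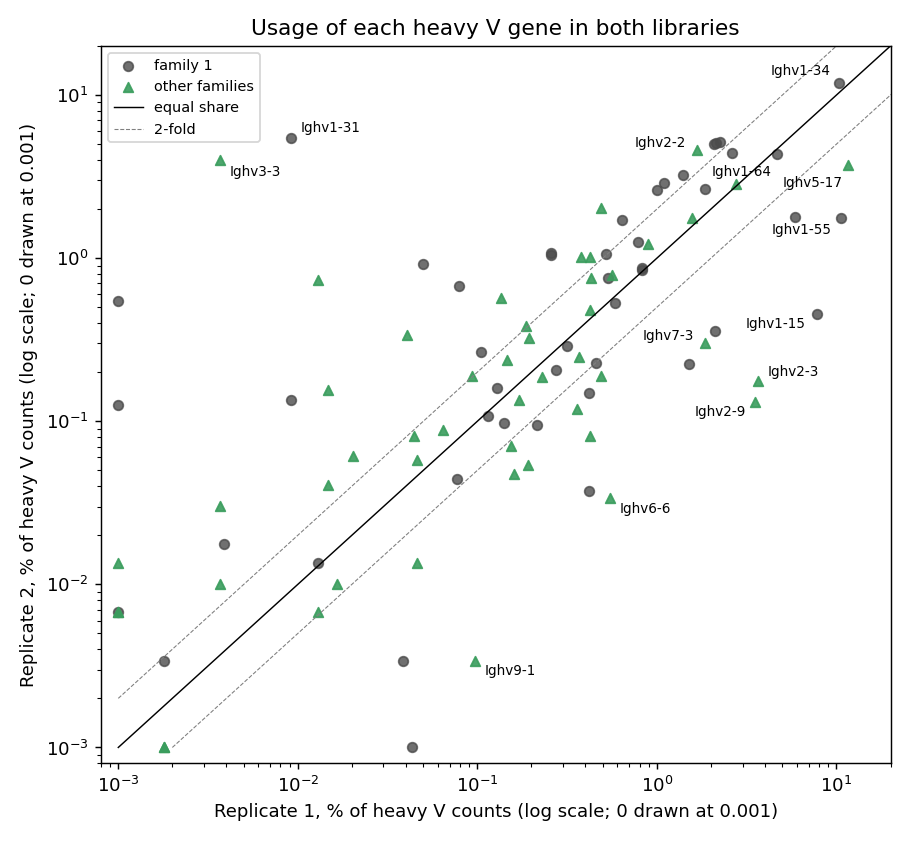
Usage of each heavy V gene, as percent of heavy V counts, in replicate 1 (x axis) and replicate 2 (y axis), both on log scales, with counts of 0 drawn at 0.001. Circles are family 1 genes and triangles other families; Ighv1-34 and Ighv1-64 lie near the line of equal share, Ighv1-15, Ighv2-3 and Ighv2-9 far below it and Ighv1-31 and Ighv3-3 far above it.

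Over all genes, the overlap of usage, the sum of the lower of both shares, was 56.7%. Across the 113 genes Pearson's r of the shares was 0.57 and Spearman's rho 0.79, given as a description, since the genes share the same 2 libraries. Pearson's r was 0.43 without Ighv1-34, the highest gene. Of the 27 genes with a mean usage of at least 1%, which held 83.1% of the counts on average, 8 were at least 2-fold higher in usage in replicate 1, 11 in replicate 2, and 8 lay within 2-fold. The background was all genes of the tables with at least as many counts as the least of these 27. By share of library counts, 4.01% of them were at least 2-fold apart, 3% in favour of replicate 1 and 1.01% of replicate 2. By that measure the heavy V sum of replicate 1 was itself 2.13 times that of replicate 2, so the usage directions are on another scale. Of the 27, 8 lay within 0.2 of equal TPM on the log2 scale. Their usage log2 ratios of -1.45 to -1.19 follow from the larger heavy V sum of replicate 1.

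The level in TPM, relative to the whole library, gave another split from usage, which is relative to the heavy V sum. Of the 83 heavy V genes with a mean of at least 1 TPM, 50 (60.2%) were at least 2-fold apart in TPM + 1, against 5.64% of the 13512 genes of the tables at that level. Of these, 40 were higher in replicate 1 (background 4.46%) and 10 in replicate 2 (background 1.18%). The other 30 heavy V genes fell below the filter on low values. The median log2 ratio of replicate 1 to replicate 2 was 0.80 over the 83 genes and 0.15 over all genes, a gap of 0.65. Scaled by TMM, the medians were 0.50 and -0.01, a gap of 0.51. On that scale 28 genes were at least 2-fold apart (background 3.8%, with 2.63% higher in replicate 1 and 1.16% in replicate 2). Library shares without TMM, with the same pseudocount of 1, also gave 28 genes (background 3.79%), and FPKM gave 45 (background 4.52%). The lower number was thus not particular to TMM. On the TMM and library share scales the pseudocount weighs more on short genes. By usage, 54 of the 83 genes were at least 2-fold apart, 24 in favour of replicate 1 and 30 of replicate 2. The background by share of library counts, with no pseudocount, was 6.05%, with 3.79% and 2.26% in those directions. This background is not on the usage scale, since the heavy V sum of replicate 1 was 2.13 times that of replicate 2 by share of library counts.

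Several well used genes had almost the same TPM in both libraries and so a lower usage in replicate 1. Ighv1-19 stood at 144 TPM (replicate 1) and 137 TPM (replicate 2), Ighv1-72 at 187 and 189 TPM, and Ighv1-53 at 183 and 185 TPM. Their usage was 2.26, 2.12 and 2.07% in replicate 1 and 5.16, 5.11 and 4.99% in replicate 2. Ighv1-72 is known from antibodies that C57BL/6 mice make against the hapten NP, and only 29.6% of its windows are unique, and its V exon differs from that of Ighv1-62-3 by 3 bases. Of the 27 most used genes, 8 (29.6%) lay within 0.2 of equal TPM on the log2 scale, a limit chosen after seeing the values, beside 40.6% of all genes at 1 TPM or more.

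**Figure D3:**
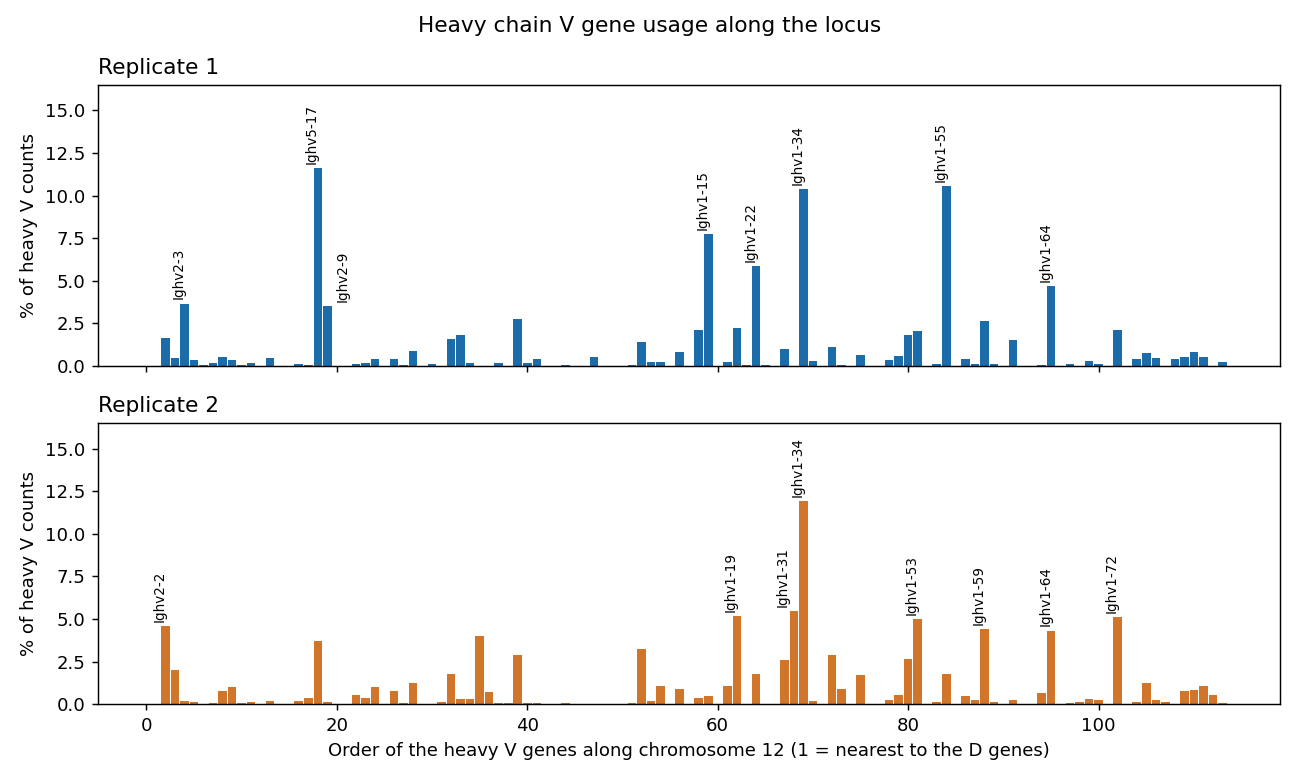
Usage of each heavy V gene (y axis, percent of heavy V counts) in order along chromosome 12 (x axis, 1 is nearest to the D genes), with replicate 1 above and replicate 2 below. Ighv1-34 stands high in both at 10.4% and 11.9%, while the other tall bars, such as Ighv5-17 and Ighv1-55 in replicate 1 and Ighv1-31 in replicate 2, differ between them.

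Summed by family, the libraries were closer, with an overlap of 88.8% of usage. Family 1, the largest with 53 genes, held 65.4% of heavy V counts in replicate 1 (exact interval 65.0 to 65.8%) and 70.6% in replicate 2 (70.1 to 71.2%), a mean of 68.0% ± 3.69 (SD, n = 2). It makes up 46.9% of the 113 genes, and was the only family above its share of genes in both libraries. Without Ighv1-34 its mean was 64.0%. There were 12 families below their share of genes in both.

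Families 5 and 2 were higher in replicate 1 by usage and family 3 higher in replicate 2, beyond counting error. Family 5 held 13.4% in replicate 1 and 7.61% in replicate 2, and family 2 held 10.02% and 5.93%. Family 3 held 3.79% in replicate 1 and 8.10% in replicate 2. Different genes made up these sums. Within family 2, Ighv2-3 led replicate 1 with 36.6% of the family's counts, and Ighv2-2 led replicate 2 with 77.0%. Within family 3, Ighv3-6 led replicate 1 with 72.9% and Ighv3-3 led replicate 2 with 49.6%. Within family 5, Ighv5-17 led both, with 87.0% in replicate 1 and 49.0% in replicate 2. Without Ighv5-17, family 5 held 1.73% of heavy V counts in replicate 1 and 3.88% in replicate 2, the opposite order. Ighv2-3 and Ighv2-9 held 3.67% and 3.53% in replicate 1, against 0.176% and 0.132% in replicate 2. Ighv3-3 held 0.0037% in replicate 1 and 4.02% in replicate 2. A few genes thus carried these family differences.

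Families 6 and 7 also had different leaders. Within family 7, Ighv7-3 made up 99.1% of the counts in replicate 1, whereas Ighv7-4 made up 69.0% in replicate 2. Within family 6, Ighv6-6 made up 89.5% in replicate 1 and Ighv6-3 72.2% in replicate 2, though the family had 36 counts there. Other small families kept their leader. Ighv8-8 led family 8 with 44.4% of its counts in replicate 1 and 48.6% in replicate 2, and family 8 held 0.957% and 0.987% of all heavy V counts, from 9 genes that are 7.96% of the 113. Ighv9-3 led family 9 with 85.1% and 89.5%, and Ighv14-3 led family 14 with 54.2% and 42.5%. Ighv4-1, alone in family 4, had 101 counts in replicate 1 and 113 in replicate 2, and Ighv10-3, the leader of family 10, had 125 and 55.

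**Figure D4:**
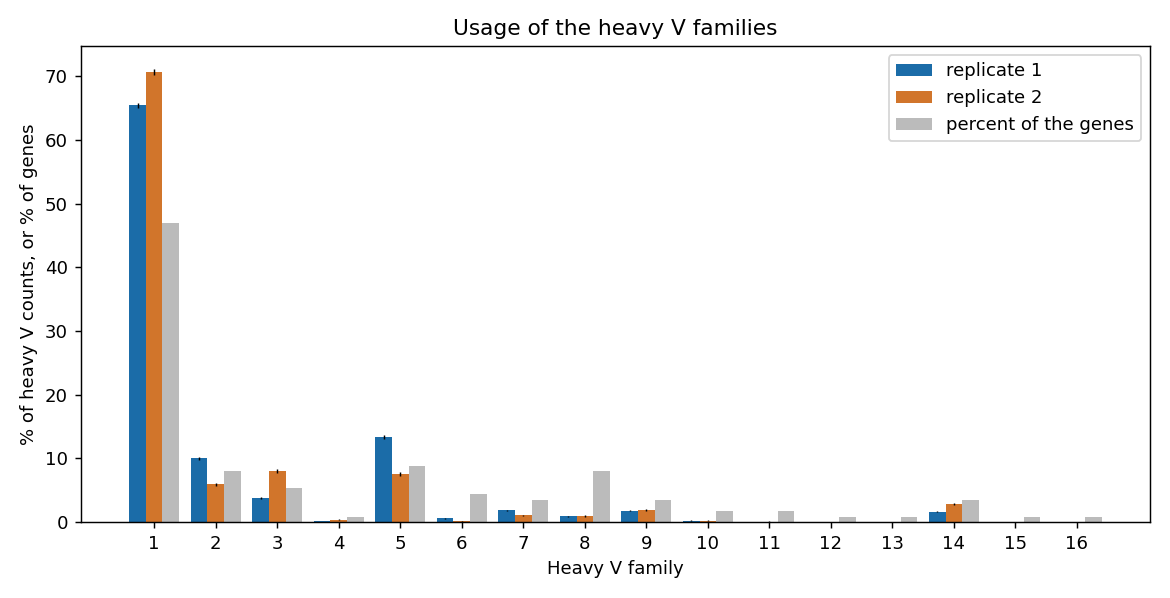
Usage of each heavy V family (x axis) as percent of heavy V counts in replicate 1 and replicate 2, beside the percent of the 113 genes that belong to the family (y axis). Thin bars are exact 95% binomial intervals; family 1 stands at 65.4% and 70.6% above its 46.9% of the genes.

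A few genes with known uses had low counts. Ighv11-2 and Ighv12-3, which are known from B-1 cell antibodies that bind phosphatidylcholine, had 24 and 2 counts in replicate 1 and 24 and 3 in replicate 2. Ighv7-1, known from antibodies to phosphorylcholine, had 2 counts in replicate 1 and 9 in replicate 2. Ighv5-2, the gene nearest to the D segments and one used often in fetal B cell development, had 7 counts in replicate 1 and 2 in replicate 2.

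The 113 genes span 2422 kb of chromosome 12, all on the minus strand, from 113578504 to 116000461. Ighv5-2 (113578504 to 113578990) lies at the end near the D segments, and Ighv1-85 (116000028 to 116000461) at the far end, with 117 counts in replicate 1 and 28 in replicate 2. The 38 genes nearest to the D segments held 29.4% of the counts in replicate 1 and 25.02% in replicate 2. The 37 in the middle held 38.6% and 43.2%, and the 38 farthest 32.0% and 31.8%. Family 1 has no gene among the nearest 38, 23 in the middle and 30 among the farthest, so position and family cannot be separated there. Across all genes Spearman's rho of mean usage with order along the locus was 0.05. Within family 1, the 27 genes nearer to the D segments held 59.4% of the family's counts in replicate 1 and 67.9% in replicate 2. These 27 include Ighv1-34, which alone held 10.4% of all heavy V counts in replicate 1 and 11.9% in replicate 2.

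Closely alike genes limit how finely usage can be read. The nearest other member of a gene was 95.1% identical in V exon at the median, and 57 genes had one at least 95% identical. Genes of a family were 85.5% identical over 1540 pairs at the median, and genes of different families 62.9% over 4788. Even so, 94.9% of the 76-base windows of a member's transcript were unique at the median. The V exons of Ighv1-62-2 and Ighv1-71 do not differ over 313 bases. All of their counts, 824 in replicate 1 and 66 in replicate 2, were assigned to Ighv1-62-2 and none to Ighv1-71, so their usage is that of the pair. Ighv1-52 and Ighv1-61 differ by 4 bases, and Ighv1-52 had the largest posterior SD of the count, 3.65 in replicate 1 and 2.78 in replicate 2, against 1004 and 781 counts. The posterior SD was 0 for 92 genes in replicate 1 and 96 in replicate 2.

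The annotated V genes end where the D segment joins, so a joined transcript lies only in part on them. Heavy V counts came to 7.496% of the counts on heavy chain constant genes in replicate 1 and 6.13% in replicate 2 (mean 6.81% ± 0.966, SD, n = 2), and to 42.9% and 37.0% by TPM, which corrects for length. The 19 D and 4 J genes had 0 counts in both libraries. Kappa V counts came to 35.1% of Igkc counts in replicate 1 and 40.5% in replicate 2. By TPM the kappa values were 28.9% and 32.9%, below those of the heavy chain in both libraries. The annotated transcript length had a Spearman's rho of 0.16 with mean usage, as a description across genes.

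Igha, the constant gene of IgA, took 97.6% of heavy constant counts in replicate 1 and 95.7% in replicate 2, at 17969 and 8967 TPM. Ighm, the IgM gene carried by most unswitched B cells, took 0.896% in replicate 1 and 2.46% in replicate 2. Ighg2b took 0.876% and 0.934%. Of the 8 heavy constant genes, Igha and Ighg1 were at least 2-fold higher in TPM + 1 in replicate 1 (4.46% of all genes) and none in replicate 2, and 7 reached 1 TPM in both. By share of library counts Igha was 1.78-fold and Ighg1 1.93-fold higher in replicate 1, both under 2-fold. The tables do not say which V gene was joined to which constant gene.

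By TPM 7 of 8 plasma cell markers and 1 of 8 B cell markers had the higher value in replicate 1, and by share of library counts 6 and 0, none of them 2-fold apart in TPM + 1. Their part in the heavy V level was not tested. By TPM all genes leaned to replicate 1, with a median log2 ratio of 0.15, and Sdc1, a plasma cell marker counted as higher, lay below that at 0.04. By library shares the median of all genes was -0.01. All 8 plasma cell markers reached 1 TPM in both libraries and summed to 1795 TPM (replicate 1) and 1091 TPM (replicate 2), a median log2 ratio of 0.75 beside 0.15 over all genes. Jchain, the chain that joins IgA units, made up most of both sums, at 1479 TPM (replicate 1) and 778 TPM (replicate 2). Tnfrsf17, a plasma cell survival receptor, stood at 13.8 and 6.99 TPM, and Xbp1, a factor of the secretory cell state, at 124 and 172 TPM. All 8 B cell markers reached 1 TPM in both and summed to 109 TPM (replicate 1) and 160.4 TPM (replicate 2), a median log2 ratio of -0.57. Cd79a, a chain of the B cell receptor complex, reached 45.7 TPM (replicate 1) and 69.6 TPM (replicate 2). The 5 T cell markers summed to 32.7 TPM (replicate 1) and 31.3 TPM (replicate 2).

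The machinery that joins V genes was at or near 0. Rag1, a subunit of the recombinase, had 1 count in each library, Rag2, its partner, 2 in replicate 1 and 0 in replicate 2, and Dntt, which adds bases at the joints, 9 and 8, so all 3 lay below 1 TPM. Ung, a uracil glycosylase that takes part in class switching, was at 8.67 TPM in replicate 1, against 8.48 TPM in replicate 2. The follicle and germinal centre genes Bcl6, Cr2 and Cxcr5 summed to 15.3 TPM (replicate 1) and 16.2 TPM (replicate 2). Pou2af1, a coactivator at the octamer of V promoters, stood at 19.2 TPM (replicate 1) and 16.3 TPM (replicate 2), and with Pou2f1 and Pou2f2 the list summed to 27.9 and 21.1 TPM. None of the genes in this paragraph was at least 2-fold apart in TPM + 1.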

How the data were processed

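The 2 gene tables, 1 per polyA library (stranded paired reads of 76 nt from RNA over 200 nt, per the labels), were used, on mm10 with GENCODE M4 per the accompanying notes. The authors deposited expected counts, which need not be whole, TPM corrected for effective length, and FPKM. The deposited signal columns used were the posterior SD of each count and the bounds of TPM, of which only the SD is printed. The aligner and quantification program are not named in the labels or notes read here. Symbols, biotypes, positions and sequences came from GENCODE M21, matched on gene identifier without version (42462 of 43346 genes had a symbol); RefSeq promoter entries were not used here. A read counts for a V gene only where it lies within the annotated transcript, so reads across the joined D segment and the mutated V segments of plasma cells may be missed or moved.

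Usage was each gene's percent of summed heavy V expected counts. Ratios were log2((TPM + 1) in replicate 1 / (TPM + 1) in replicate 2) over genes with mean TPM of at least 1, which understates the difference of low genes. Intervals are exact binomial (95%); that of a usage ratio is conditional on the summed count. Nothing was tested, since there is 1 group. The fold calls and concentration measures were tried on simulated data that held counting error only. The simulated ratios were centred on their median, unlike those reported here. Spread between libraries and uncertain read assignment among alike genes were not simulated, so the trial says nothing of these. Depth, 50189619 and 58233142 counts, sets the counting error.

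The heavy V genes and the lists were chosen with earlier results of these data known. Named were the 10 genes highest in mean usage, the 5 highest per library, the 5 largest usage ratios each way at a mean usage of at least 0.5%, the leader of each family, the genes at either end of the locus, the 3 highest Ighv pseudogenes by counts in replicate 1, and the lists of plasma cell, B cell, T cell, recombination, promoter factor, mutation, follicle and heavy constant genes. Genes at 0 counts, Ighv1-84, Ighv7-1, Ighv7-4, Ighv6-3, the pseudogene Ighv1-14 and the near-identical genes were named after their values were seen. Some list genes are not reported here.

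Alternatives were TPM shares, posterior means, FPKM, other pseudocounts, filters and folds, TMM (edgeR 4.0.16) and median-ratio scaling (DESeq2 1.42.0) in R 4.3.3, and subsets of the genes. Python 3.11.15 was used for the rest, with scipy 1.17.1, numpy 2.4.6, matplotlib 3.10.9 and pandas 2.3.3. Transcript tables and the mm9 junction and contig lists were not used here.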

Additional observations from a re-analysis of the deposited data

Results flagged for a closer look

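Ighv1-2, annotated as a pseudogene (ENSMUSG00000102524.1, chromosome 12, 114469075 to 114469535, GRCm38) and so outside the heavy V genes above, had 207 counts (28.2 TPM) in replicate 1 and 3 counts (0.31 TPM) in replicate 2. It stood out as a signal in data outside the main measurement, above the floor of 3 counts. It came to 0.381% of the heavy V counts in replicate 1. Of the 60 Ighv pseudogenes 7 had any count, and all 60 summed to 222 counts in replicate 1 and 14 in replicate 2. By counts in replicate 1 the next highest, Ighv1-38, had 8 counts there and 3 in replicate 2, and Ighv1-62 had 3.01 and 0. In replicate 2 the highest was Ighv1-14, with 6 counts, against 0 in replicate 1.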

How the results depend on the processing

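Leaving out a library aside, 18 of 90 alternative values of the main results moved by more than the spread between the replicates, 1.5 times a count, 5 points of overlap or 0.1 of a correlation. By shares of summed TPM the most used gene held 9.77% and the 38 farthest genes 33.8%. Without Ighv1-34, the highest gene, the most used held 9.59%, family 1 64.0%, the nearest, middle and farthest genes 30.6, 33.5 and 35.9%, and Pearson's r was 0.43. With only the 109 genes of mostly unique windows, the most used held 12.3% and the farthest genes 28.7%. Heavy V genes took 0.564% of TPM, and 39.95% of heavy constant TPM. At 10 TPM 40 genes were detected in both libraries. By a mean of at least 10 TPM there were 59, beside 7069 of the 43346 genes of the tables. At 4-fold in TPM + 1, 28 of 83 heavy V genes were apart, beside 169 of 13512 genes of the tables. Both sets had a mean of at least 1 TPM. At 2-fold by TMM, by DESeq2 size factors or by unscaled library shares, 28 of the 83 were also apart. The background for these was 513, 508 and 512 of the 13512 genes. On the TMM, DESeq2 and library share scales the pseudocount weighs more on short genes. With the pseudogenes added, Spearman's rho was 0.89, over more genes at 0.

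By usage the log2 ratio changed sign for 9 of 31 named genes. Of those at least 2-fold apart in TPM + 1 these were Ighv1-34 (-0.20), Ighv3-6 (-0.0487), Ighv8-8 (-0.17) and Ighv9-3 (-0.17), and of those nearer Ighv1-19 (-1.19), Ighv1-59 (-0.75), Ighv4-1 (-1.04), Ighv11-2 (-0.88) and Ighv14-3 (-0.44), since usage is relative to a larger heavy V sum in replicate 1. Leaving out 1 library gave 11.6 to 11.9% for the most used gene, 53.7 to 63.5% for the top 10, an inverse Simpson number of 18.0 to 24.3, and 65.4 to 70.6%, 5.93 to 10.02%, 3.79 to 8.10% and 7.61 to 13.4% for families 1, 2, 3 and 5. It gave 25.02 to 29.4%, 38.6 to 43.2% and 31.8 to 32.0% by position, 0.0508 to 0.108% of counts, 6.13 to 7.496% of constant counts and 80 to 82 genes at 1 TPM. With 2 libraries these ranges are the library values and say nothing of stability. There is no such value for results that need both libraries. No paired analysis was possible because there is 1 group. At this depth a count of 0 allows a usage of up to 0.0055% in replicate 1 and 0.0101% in replicate 2.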

Other observations

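The light chain V genes were not spread in the same way. The 97 kappa V genes summed to 61395 counts in replicate 1 and 54555 in replicate 2, a ratio of 1.31 by share of library counts, beside 2.13 of the heavy V genes. Their 10 most used genes held 64.1% in replicate 1 and 74.6% in replicate 2, the opposite order to the heavy V genes, and the overlap of usage was 68.3%. Of 76 kappa V genes at a mean of 1 TPM, 44 (57.9%) were at least 2-fold apart, beside 5.64% of all genes. The 3 lambda V genes summed to 4673 counts in replicate 1 and 647 in replicate 2, 8.38-fold higher in replicate 1 by share of library counts. The only lambda constant gene summed here had 2055 counts in replicate 1 and 1485 in replicate 2. Lambda V counts came to 227% of these in replicate 1 and 43.6% in replicate 2.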
